A study of Mus musculus with 12 samples.

Results

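Small nucleolar RNA (snoRNA) genes were taken as the transcript clusters of the array annotated to exactly 1 gene whose symbol begins Snora, Snord or Scarna. A transcript cluster is the group of probes that the array reports as a single value. There were 54 such genes among 19937 genes that had a transcript cluster of their own. Of these, 31 were Snord genes, which encode C/D box snoRNAs, 20 were Snora genes, which encode H/ACA box snoRNAs, and 3 were Scarna genes, which encode small Cajal body RNAs. The rule found 56 transcript clusters, because Snora3 and Snora21 have 2 each, and the cluster with the higher mean over the 12 arrays was used for each. The choice used the mean level and no difference between genotypes. A further 22 transcript clusters name a snoRNA gene together with other genes and were not counted as members. The RefSeq gene table lists 142 genes with such symbols, so the 54 are a part of the family. All 54 passed the filter on low values, which asked that a transcript cluster reach the 20th percentile of its array on at least 1 array.

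snoRNAs are short nuclear RNAs that guide the chemical modification of other RNAs by base pairing. C/D box snoRNAs direct ribose methylation by the methyltransferase fibrillarin, and H/ACA box snoRNAs direct pseudouridylation by dyskerin. Most act on ribosomal RNA in the nucleolus, a few are needed for the cleavage of its precursor, and small Cajal body RNAs modify the small nuclear RNAs of the spliceosome. Most mammalian snoRNAs are cut out of the introns of a host gene after splicing, and many hosts encode ribosomal proteins or are non-coding RNAs whose main known product is the snoRNA. Bone marrow progenitors divide often and make many ribosomes.

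The samples were lineage-depleted mouse bone marrow, the cells of crushed hindlegs that remained once magnetic beads had taken out those with Ter119, GR1, CD11b, B220, CD2 or NK1.1 on their surface. Total RNA of 6 E4bp4-/- mice and 6 E4bp4+/+ mice was hybridised, 1 array per mouse, and the arrays are called KO1 to KO6 and WT1 to WT6 after the replicate numbers of the labels. E4bp4, also named Nfil3, is a transcription factor without which natural killer cells do not develop normally, and the series asks which genes it regulates in marrow. Strain, age and sex, and the part of the gene that was deleted, are not given in the sources used here. Values are log2 levels, so a difference of 1 is a factor of 2. Levels of different transcript clusters come from different probes and are not compared with each other below.

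Nfil3 itself lay between 6.34 and 6.92 in the knockout and between 6.94 and 7.66 in the wild type. The ranges did not overlap, and the knockout minus wild type difference was -0.68 ± 0.13 log2 (SE). Of the 9 progenitor genes with a value, Kit was between 10.93 and 11.38 over both genotypes, Mpo between 13.24 and 13.69, and Hoxa9 between 7.59 and 7.92. All 9 were higher in the knockout, 5 of them at an unadjusted limma p under 0.05 and 0 after adjustment. Over all transcript clusters 8.47% were higher at that threshold. Without KO1, 6 of the 9 were higher, 3 of them at that threshold, against 8.42% of all transcript clusters. Of 6 depleted-lineage genes with a value, only Klrb1c, which encodes the depleted antigen NK1.1, was below the 20th percentile on every array. Ptprc, listed for B220 but also expressed by other cells, ran from 8.55 to 9.51. Itgam, which encodes CD11b, ran from 6.81 to 8.93. The other 3 were lower: Cd2 ran from 5.01 to 5.40, Cd79a from 4.94 to 5.68, and Ly6g from 4.74 to 5.31 apart from 6.55 on KO1. The 20th percentile itself lay between 4.93 and 4.99 over the arrays. KO1 stood apart from the other 11 arrays. Its level of Xist, expressed from the inactive X chromosome of females, was 6.08 against 12.10 to 12.65, and its level of the Y-linked gene Uty was 7.70 against 4.31 to 4.66. All 9 neutrophil genes examined were highest on KO1, among them Ngp at 12.01 and S100a8 at 10.57. The main results are therefore given with and without KO1.

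By the RefSeq gene table, 53 of the 54 snoRNA genes lay inside a longer gene, here called the host, and these hosts numbered 43. The host was protein-coding for 39 snoRNA genes and a long non-coding RNA (lncRNA) for 14. Snord118, which encodes the U8 snoRNA used in making the large ribosomal subunit, was the exception: no longer gene contained it. Starts of genes of the translation machinery often carry a run of pyrimidines, the 5′ terminal oligopyrimidine motif, so the start windows of the hosts were read from the RefSeq promoter table of build GRCm38.p6. A run of at least 5 bases, each C or T, on the transcribed strand and at or within 5 bases of an annotated start was found for 19 of the 33 hosts with an entry (57.6%). Among all 27025 genes of that table the share was 35.1%, counting the longest run where a gene had several starts. The opposite strand was not searched. All 8 lncRNA hosts with an entry had such a run, against 11 of 25 protein-coding hosts (44.0%). The match is a description of these letters only. Start windows of 5 lncRNA hosts are shown, because they carry the snoRNA pairs and single genes described below. Each runs from 60 bases before the start to 40 bases of transcript, 5′ to 3′, with the pyrimidine run in capitals. Snhg3, the host of Snora73a and Snora73b, is at chr4:132353647-132353746 on the minus strand. Snhg12, the host of Snora16a and Snora44, is at chr4:132308618-132308717 on the plus strand. 2410006H16Rik, the host of Snord49a and Snord49b, is at chr11:62602817-62602916 on the plus strand. Snhg1, the host of Snord22, is at chr19:8723427-8723526 on the plus strand. Gas5, the host of Snord47, has 2 annotated starts, and the window with the longer run is at chr1:161035106-161035205 on the plus strand.
Snhg3: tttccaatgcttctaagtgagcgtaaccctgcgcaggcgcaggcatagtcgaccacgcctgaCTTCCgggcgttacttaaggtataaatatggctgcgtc
Snhg12: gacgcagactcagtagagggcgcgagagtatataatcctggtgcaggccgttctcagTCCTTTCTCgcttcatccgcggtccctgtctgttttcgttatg
2410006H16Rik: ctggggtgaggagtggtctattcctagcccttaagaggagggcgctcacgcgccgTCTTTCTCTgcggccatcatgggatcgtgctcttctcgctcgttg
Snhg1: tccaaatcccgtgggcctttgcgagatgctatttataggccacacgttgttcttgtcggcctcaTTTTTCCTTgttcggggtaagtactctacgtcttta
Gas5: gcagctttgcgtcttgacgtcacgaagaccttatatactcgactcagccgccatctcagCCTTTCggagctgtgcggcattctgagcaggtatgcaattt

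The first comparison asked whether snoRNA genes differed between knockout and wild type. By limma, 0 of the 54 had an adjusted p under 0.05, and 0 of the 54 had an unadjusted p under 0.05. Over all 29541 transcript clusters tested, 0 (0%) passed the adjusted threshold and 4391 (14.9%) the unadjusted one, 2502 of them higher in the knockout (8.47%) and 1889 lower (6.39%). In 0 of the 54 did the 6 knockout arrays lie wholly above or below the 6 wild type arrays, against 375 of all transcript clusters (1.27%). In sign, 19 of the 54 were higher in the knockout and 35 lower, with a median difference of -0.03 log2 against 0.02 over all transcript clusters. The C/D genes divided into 12 higher and 19 lower with a median of -0.02. The H/ACA genes divided into 5 higher and 15 lower with a median of -0.10. For the Scarna genes, 2 were higher and 1 lower, with a median of 0.03.

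These signs depended on single arrays. Without KO1, 32 of the 54 genes were higher in the knockout and 22 lower, and the medians were 0.07 for C/D, 0.01 for H/ACA and -6.9e-05 for Scarna genes. KO1 was the only array whose removal turned the H/ACA median. The C/D median also turned positive without WT3 (0.00211), WT5 (0.00359) or WT6 (0.0238). The Scarna median also turned negative without KO2 (-0.0243), KO3 (-0.00825), WT5 (-0.0124) or WT6 (-0.0237). The 11 other arrays gave an unadjusted p under 0.05 for 2 of the 54 genes, both H/ACA and both higher, against 13.6% of all transcript clusters in the same fit, and an adjusted p under 0.05 for 0. Centring each array on its median gave 14 higher and 40 lower in place of 19 and 35, and turned the Scarna median to -0.01.

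Differences were estimated less precisely for snoRNA genes than over all transcript clusters. The median standard error of a difference was 0.16 log2 for the 54 snoRNA genes and 0.06 over all transcript clusters. The median spread within a genotype (pooled SD) was 0.30 and 0.11 log2. Confidence intervals at 95% extended a median of 0.34 log2 to either side of a snoRNA difference, against 0.14 over all transcript clusters. The narrowest was that of Snord104, with 0.08, and the widest that of Snora44, with 0.76. For 33 of the 54 genes the whole interval lay within 0.5 log2 of 0, and for 52 within 1 log2. Changes smaller than these intervals were not detectable with 6 arrays per genotype.

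**Figure D1:**
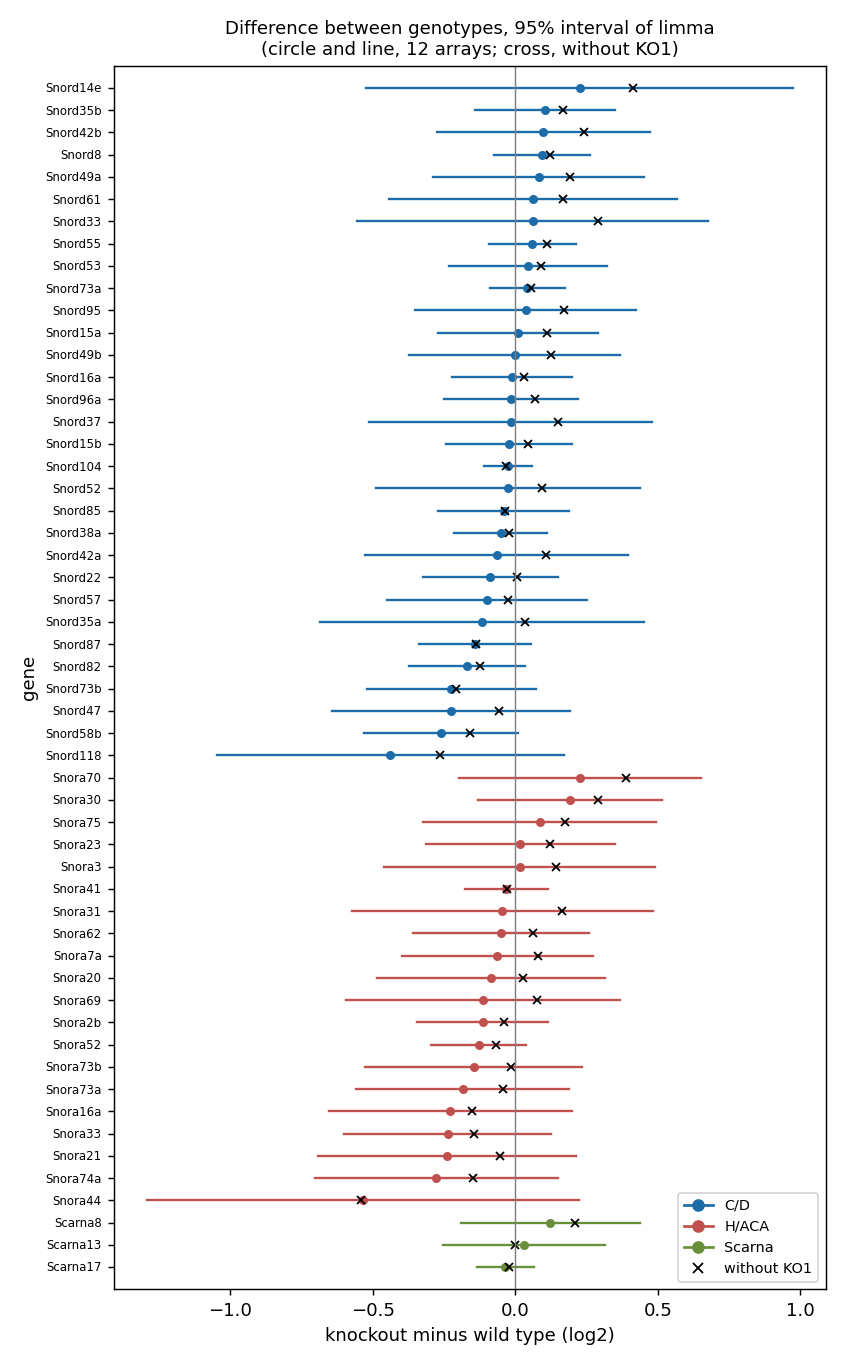
Difference between genotypes for each of the 54 snoRNA genes, with knockout minus wild type in log2 on the horizontal axis and genes on the vertical axis, ordered within class. Circles and lines are limma estimates with 95% intervals over 12 arrays, and crosses are the estimates without KO1. Every line crosses 0, and 32 crosses lie above 0 against 19 circles.

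Among C/D genes lower in the knockout, Snord58b, a methylation guide hosted by the ribosomal protein gene Rpl17, had the lowest p-value. Its levels ran from 5.11 to 5.87 with a median of 5.67 in the knockout and from 5.63 to 6.03 with a median of 5.96 in the wild type. The groups overlapped, and KO1 was the lowest array. The difference was -0.26 ± 0.12 log2, with a limma p of 0.0560, an adjusted p of 0.349 and a two-sided exact permutation p of 0.0671. Without KO1 the difference was -0.16 (two-sided exact permutation p = 0.134), while leaving out KO2, KO3, WT2 or WT5 took its unadjusted p below 0.05.

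Snord118, the U8 snoRNA without a host, lay between 5.14 and 6.61 in the knockout with a median of 6.23, and between 5.56 and 7.22 in the wild type with a median of 6.52. KO1 was its lowest array and WT1 its highest. The difference of -0.44 ± 0.28 log2 (two-sided exact permutation p = 0.171) had a 95% interval from -1.05 to 0.17. Without KO1 it was -0.26 (exact permutation p = 0.340). Snord82, inside the nucleolin gene Ncl, was between 10.81 and 11.41 in the knockout and between 11.22 and 11.41 in the wild type. Its difference was -0.17 ± 0.09 log2 (exact permutation p = 0.139), and KO3 and KO1 were the only arrays below 11. Snord73b, hosted by the ribosomal protein gene Rps3a1, differed by -0.22 ± 0.14 and Snord87, hosted by Snhg6, by -0.14 ± 0.09. Both groups overlapped in each of these genes. Without WT2, Snord58b, Snord87 and Snord118 were all at an unadjusted p under 0.05, and without KO5 Snord73b and Snord82 were. In those fits 17.2% and 13.3% of all transcript clusters were at that threshold.

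On the higher side the C/D genes with the lowest p-values differed by at most 0.23 log2. Snord8, inside the chromatin remodeller gene Chd8, was at 7.60 to 7.94 in the knockout and at 7.51 to 7.83 in the wild type, with 0.09 ± 0.08 between them (exact permutation p = 0.275). Snord73a, inside Rps3a1, differed by 0.04 ± 0.06. Snord14e, a copy of the U14 snoRNA inside the chaperone gene Hspa8, had the largest estimate at 0.23 ± 0.35 (exact permutation p = 0.576), and 0.41 without KO1. Its wild type arrays alone spanned 8.16 to 10.25, wider than the knockout range of 8.54 to 10.19.

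Among H/ACA genes, Snora44 had the largest difference. It lies in Snhg12 beside Snora16a. Its knockout levels ran from 8.11 to 10.19 with a median of 9.45, and its wild type levels from 9.02 to 10.89 with a median of 9.82. The lowest array was KO6 and the highest WT1. The difference was -0.53 ± 0.35 log2, with p = 0.151 in limma and a two-sided exact permutation p of 0.210. Without KO1 it was -0.54. Snora16a differed by -0.23 ± 0.20, or -0.15 without KO1, and its highest array was again WT1, at 9.79.

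Snora52, inside Rplp2, gave the lowest H/ACA p-value. It was at 12.60 on KO1 and at 12.89 to 13.06 on the other knockout arrays, against 12.86 to 13.16 in the wild type. Its difference was -0.13 ± 0.08 log2 (exact permutation p = 0.128), and -0.07 without KO1 (exact permutation p = 0.264). Snora74a, hosted by Snhg4, differed by -0.28 ± 0.20 and Snora33, hosted by the ribosomal protein gene Rps12, by -0.24 ± 0.17. Both were lowest on KO1, at 7.31 and 6.70, and without it the differences were -0.15 and -0.14.

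The H/ACA genes on the higher side were also low on KO1. Snora70, a pseudouridylation guide inside the ribosomal protein gene Rpl10, was at 8.15 on KO1 and between 9.05 and 9.20 on the other 5 knockout arrays. In the wild type it ran from 8.24 to 9.14 with a median of 8.79. The difference was 0.23 ± 0.20 log2 with all arrays (exact permutation p = 0.279) and 0.39 without KO1 (exact permutation p = 0.0325, adjusted limma p = 0.305). Snora30, inside the chromatin remodeller gene Srcap, was at 6.15 on KO1 and between 6.47 and 6.99 on the other knockout arrays, against 6.09 to 6.87 in the wild type. Its difference was 0.19 ± 0.15 with all arrays (exact permutation p = 0.262) and 0.29 without KO1 (exact permutation p = 0.0758, against a limma p of 0.0449). Snora75 differed by 0.09 ± 0.19, Snora23 by 0.02 ± 0.15 and Snora3 by 0.02 ± 0.22, all of them less than their standard errors. Without KO1 these were 0.17, 0.12 and 0.14. The sign of the last 3 changed when single arrays were left out, and that of Snora23 and Snora3 also when each array was centred on its median.

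The Scarna genes differed little. Scarna8, inside the augmin subunit gene Haus6, was at 6.55 to 7.35 in the knockout and 6.55 to 7.30 in the wild type, and differed by 0.12 ± 0.14 log2, or 0.21 without KO1. Scarna13, inside Snhg10, differed by 0.03 ± 0.13, and its sign also turned with median centring and with single arrays left out. Scarna17 was the least variable of the 3, with every array between 11.03 and 11.22 and a difference of -0.04 ± 0.05.

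The second comparison asked whether snoRNA genes moved together over single arrays. Each gene was centred on its own mean over the 12 arrays, and the centred values were averaged by class. KO1 had the lowest C/D mean, -0.48 log2, and the lowest H/ACA mean, -0.60. On KO1, 30 of 31 C/D genes and 20 of 20 H/ACA genes lay below their own mean, and it was the lowest of all arrays for 32 of the 54 genes. WT2 came next, with class means of -0.25 and -0.27 and 46 of 54 genes below their mean. WT6 was the highest, with class means of 0.25 and 0.22, only 5 of 54 genes below their mean and the top value of 16 genes. Since KO1 and WT2 carry different genotypes, low levels were not limited to the knockout.

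**Figure D2:**
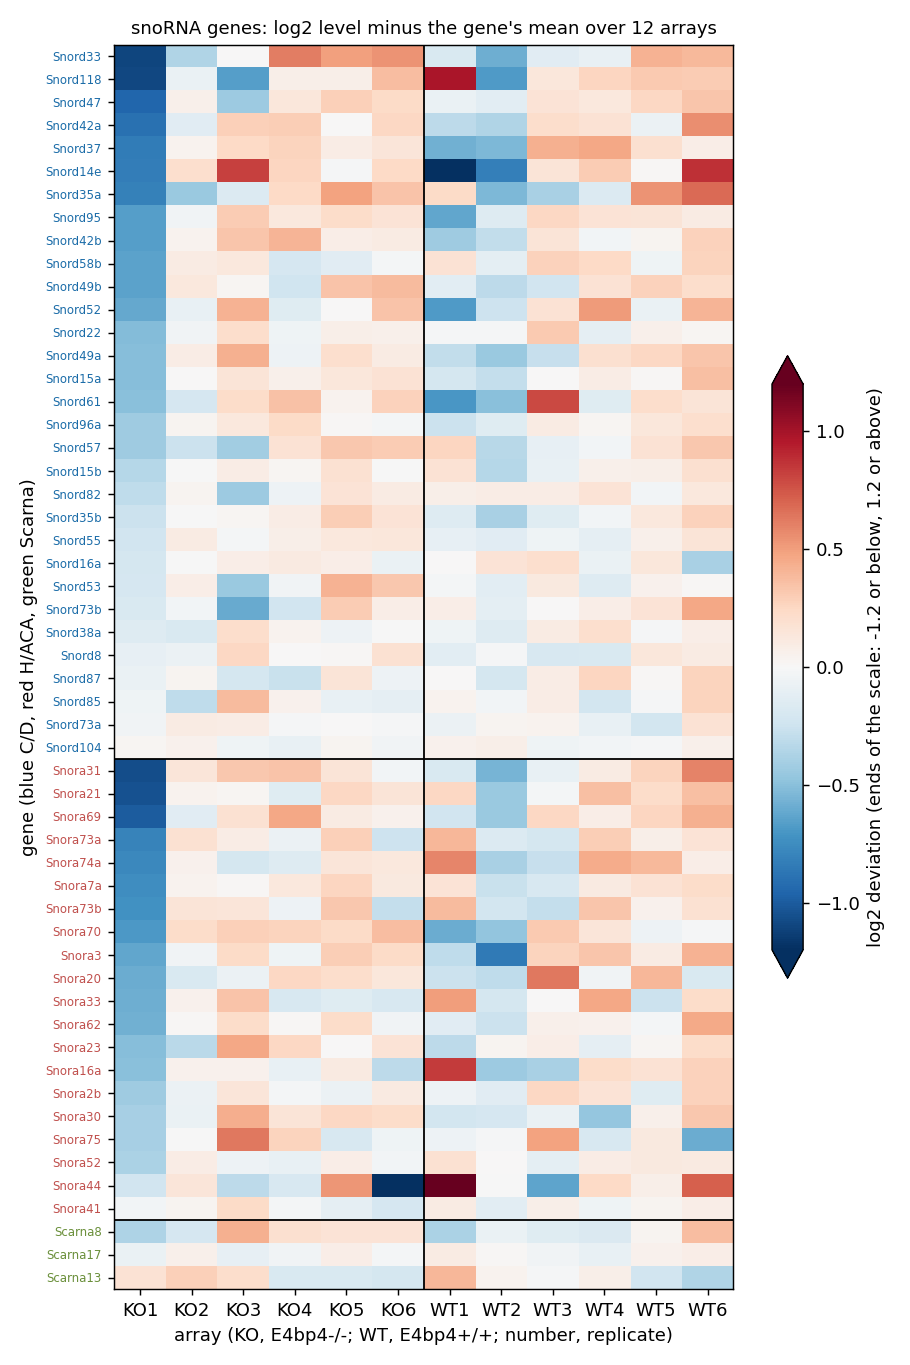
Log2 level of each snoRNA gene (vertical axis, grouped by class) on each array (horizontal axis) after subtraction of the gene's mean over 12 arrays, with blue below and red above that mean. KO1 is the column with 52 of 54 genes below their mean, WT2 has 46 and WT6 has 5.

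The class means of C/D and H/ACA genes correlated over the 12 arrays with a Pearson r of 0.861 and a Spearman rho of 0.455. Deviations within genotype gave an r of 0.865, the 6 knockout arrays alone 0.909 and the 6 wild type arrays alone 0.786. The linear relation rested on the low arrays. Without KO1 the r was 0.646, and without KO1 and WT2, the 2 arrays farthest from the C/D median, it was 0.193 with a rho of 0.0545. Taking only 1 gene per host gave 0.887. These values describe genes that share arrays, a normalisation and in part hosts, and no p-value is attached to them. The Scarna mean ran from -0.10 on KO1 to 0.18 on KO3 and correlated with the C/D mean at 0.246.

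The classes parted on particular arrays. On WT1 the C/D mean was -0.13 and the H/ACA mean 0.11, with 20 of 31 C/D genes and 10 of 20 H/ACA genes below their mean. On KO6 it was the reverse, 0.15 for C/D and -0.06 for H/ACA. A principal component analysis of the 54 genes put 51.0% of their variance on a first component, on which 51 genes had loadings of the same sign and KO1 and WT2 the lowest scores. The second held 21.9% and had its extreme score on WT1. Without KO1 the first component held 38.7%, with loadings of 1 sign for 40 genes and the lowest scores on WT1 and WT2, and the second held 26.0%. With all 12 arrays, the lowest loadings on the second component were those of Snora44, Snord118, Snora16a and Snora74a, followed by Snora73a and Snora73b, the U17 snoRNAs needed for cleavage of the small subunit rRNA precursor. All 6 of these were highest on WT1. The highest loadings were those of Snord14e, Snord61 and Snora70, each low on WT1, with Snord14e at 8.16 and Snord61 at 5.38 there.

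**Figure D3:**
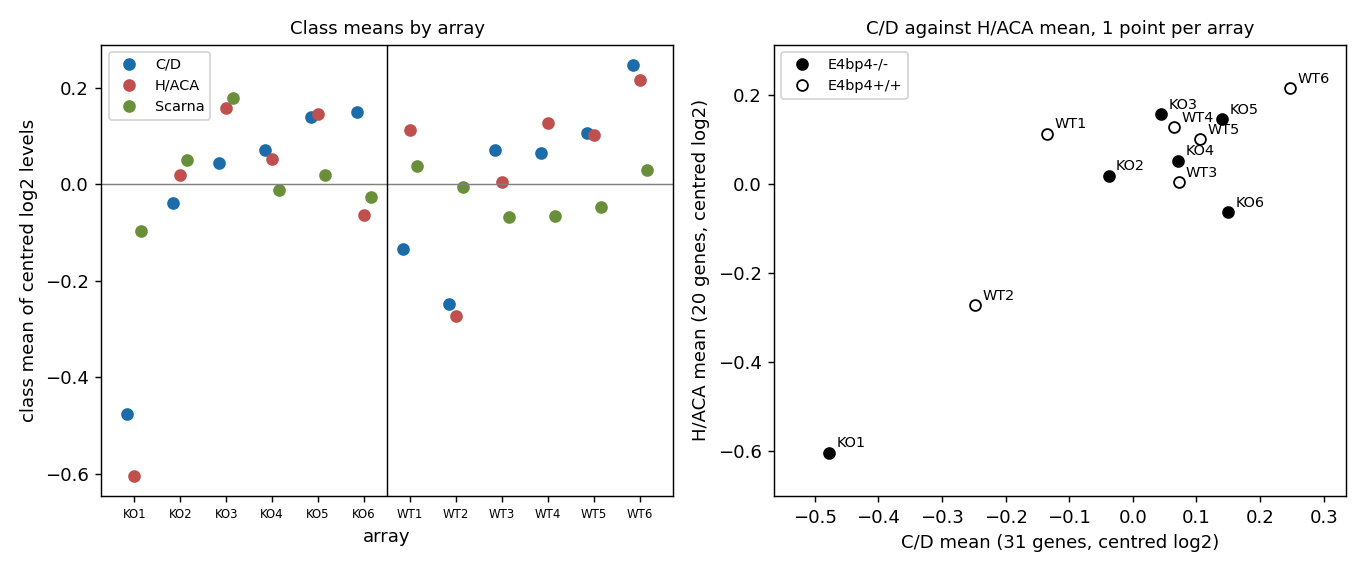
Left, mean of the centred log2 levels of each class on each array. Right, C/D mean (horizontal axis) against H/ACA mean (vertical axis), 1 point per array with filled points for E4bp4-/- and open points for E4bp4+/+. KO1, at -0.48 and -0.60, and WT2, at -0.25 and -0.27, lie apart from the other 10 arrays, and WT1 and KO6 lie on opposite sides of the trend.

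Likeness to the rest of the family was taken as the correlation of a gene's within-genotype deviations with the mean of the other 53. The 3 H/ACA genes most like it were Snora31 (r = 0.953), Snora21 (0.929) and Snora69 (0.928), and the 3 C/D genes were Snord15a (0.952), Snord42a (0.897) and Snord33 (0.870). The H/ACA genes Snora62 (0.927), Snora7a (0.907) and Snora3 (0.873) also lay above Snord33. Snora31, inside the gene Tpt1, was at 6.61 on KO1, while the other knockout arrays were between 7.64 and 8.02 and the wild type between 7.11 and 8.27. Snord33, which lies in Rpl13a with Snord35a, was at 7.02 on KO1 and at 7.76 to 8.74 on the other knockout arrays. The median of this correlation over the 54 genes was 0.705, and it was positive for 51. Without KO1 the median was 0.494, with 49 positive. The order changed too: Snora3 (0.918), Snord35b (0.910) and Snord15a (0.904) were then highest, and Snord33 was at 0.702. Not all genes followed. The correlation was -0.48 for Scarna13, -0.34 for Snord104 and 0.00 for Snora44, and Snord104 stayed between 10.80 and 10.96 on every array.

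Spread was a feature of single genes as well. Snora44 had the largest pooled SD of the H/ACA genes, 0.67 log2, and Snord14e the largest of the C/D genes, 0.66. Next came Snord33 at 0.55, Snord118 at 0.54 and Snord35a at 0.50 among C/D genes, and Snora31 at 0.47, Snora69 at 0.42 and Snora3 at 0.42 among H/ACA genes. Snord57, inside Nop56, and Snord16a, inside Rpl4, had SDs of 0.31 and 0.18. The length of the snoRNA gene and its deviation on KO1 had a Spearman rho across genes of 0.132 over 31 C/D genes, 45 to 148 nucleotides long, and -0.25 over 20 H/ACA genes, 61 to 205 nucleotides long.

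Other transcripts moved on the same arrays. The mean of the 9 neutrophil genes correlated with the mean of the 54 snoRNA genes at -0.844 over 12 arrays, and at -0.545 without KO1. It was 2.07 log2 above its average on KO1, between -0.77 and 0.40 on the other knockout arrays and between -0.83 and 0.52 in the wild type, with WT2 the highest wild type array. The megakaryocyte genes were low on KO1 and WT2, as the snoRNA genes were, but also on WT1 and WT6. Their mean was -0.42 on KO1, where 0 of 6 were above their own mean, and lowest on WT2 at -0.55. On the other knockout arrays it was 0.20 to 0.47. It was -0.46 on WT1 and -0.27 on WT6, the array with the highest snoRNA mean. Its correlation with the snoRNA mean was 0.558 over 12 arrays. Within genotype the correlation was 0.820, and 0.558 without KO1. The eosinophil, basophil and mast cell genes had a mean of 0.91 on KO1, with all 6 above their own, and a correlation of -0.392 with the snoRNA mean, or 0.0552 without KO1. All 6 listed genes of depleted lineages that had a value were above their mean on KO1, where the list mean was 0.68 against at most 0.18 on any other array. Of 8 B and plasma cell genes, 7 were above their mean on KO1, with a list mean of 0.74 against at most 0.11 elsewhere. That mean leaned on Igha, at 12.70 on KO1 against 8.18 to 9.34 on the other arrays, and only 3 of the 8 were highest on KO1. All 9 progenitor genes were above theirs too, with a list mean of 0.33. The 303 other small non-coding RNA genes of the array, 291 of them microRNA genes, had a mean of -0.03 on KO1, against -0.50 for the 54 snoRNA genes, and their mean correlated with the snoRNA mean at 0.190, or -0.0773 without KO1. Only 182 of the 303 passed the filter on low values, whereas all 54 snoRNA genes did, and a fall could be hidden in the other 121, which were near background. The mean of the 182 on KO1 was also -0.03. Some of the marker lists also differed between genotypes. In the knockout, 6 of 6 megakaryocyte genes (median 0.39 log2) and 8 of 8 B and plasma cell genes were higher. At an unadjusted limma p under 0.05 were 3 and 4 of them, and 0 after adjustment, against 8.47% of all transcript clusters higher. All 6 erythroid genes were lower, 0 at that threshold. Without KO1, 6 of 6 megakaryocyte and 6 of 8 B and plasma cell genes were higher, 6 and 3 at that threshold. The part of cell makeup, sex or RNA quality in the snoRNA pattern or the genotype comparison was not tested. In bulk RNA, fewer cells of a type and less RNA per cell cannot be told apart.

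The hosts were then set against their snoRNA genes. A transcript cluster was present for 25 of the 43 hosts, which gave 29 pairs of snoRNA and host. In 28 of the 29 the snoRNA varied more within genotype than its host, with median SDs of 0.29 and 0.07 log2. On KO1 the snoRNA genes of these pairs had a median deviation of -0.50 log2 from their mean, while that of the 25 hosts was -0.06, with 23 of them below their mean. Hosts and snoRNA genes differ in probes and in median level, 11.98 for the hosts and 8.48 for the 54 snoRNA genes. The part of this in their spreads and deviations was not tested. Snora31 deviated by -1.06 on KO1, and its host Tpt1 at -0.02. Snora21 was at -1.04 and its host Rpl23, a ribosomal protein gene, at -0.05. Snord47, at -0.96, had as its host the lncRNA Gas5, which was at -0.27. The exception in spread was Snord73a, with an SD of 0.10 against 0.12 for Rps3a1, at a low mean level of 5.44.

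**Figure D4:**
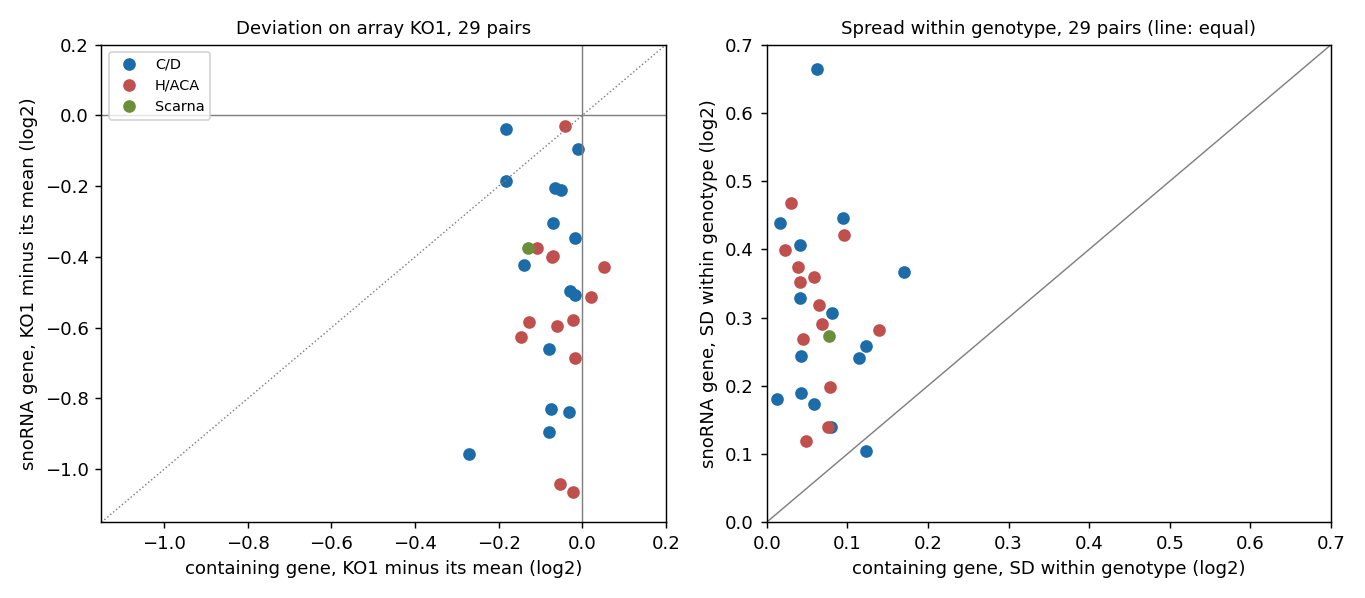
The 29 pairs of snoRNA gene and host. Left, deviation from the gene's own mean on KO1, host on the horizontal and snoRNA on the vertical axis, both in log2. Right, pooled SD within genotype, with a line where both are equal. The snoRNA genes spread down to -1.06 on KO1 while hosts stay between -0.27 and 0.05, and 28 of 29 points lie above the line on the right.

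Taken as averages over arrays, the mean of the snoRNA genes and the mean of the 25 hosts correlated at 0.744 (rho 0.636), and at 0.375 without KO1. Pair by pair, the median correlation of within-genotype deviations over the 29 pairs was 0.280, positive in 22, and without KO1 it was 0.102, positive in 17. With all 12 arrays it was highest for Snora75 with Ncl at 0.720, Snora30 with Srcap at 0.716 and Scarna8 with Haus6 at 0.697. Without KO1 these were 0.700, 0.633 and 0.665, and the highest was Snord15a with Rps3 at 0.777. Of the 25 hosts, 1 was higher in the knockout at an unadjusted p under 0.05 and 4 lower, and 0 passed the adjusted threshold. Over all transcript clusters 8.47% were higher and 6.39% lower at that threshold. Srcap was the higher host, at 10.90 to 11.19 in the knockout against 10.60 to 10.97 in the wild type. Its difference of 0.20 ± 0.08 log2 (exact permutation p = 0.0325) had the sign of the 0.19 ± 0.15 of Snora30. The lower hosts were Tcp1, a chaperonin subunit, at -0.11 ± 0.03, Haus6 at -0.12 ± 0.05, Rbmx, an RNA-binding protein, at -0.13 ± 0.06, and Rps3a1 at -0.20 ± 0.07. Scarna8, Snord61 and Snord73a, which lie in the last 3, had differences of the opposite sign, while Snora20 in Tcp1 (-0.08) and Snord73b in Rps3a1 (-0.22) had that of their host. Over the 29 pairs the signs agreed in 17. In 1 of the 25 hosts the genotypes did not overlap, against 1.27% of all transcript clusters. This was Rpl4, at 12.27 to 12.31 in the knockout and 12.32 to 12.35 in the wild type. Its difference was -0.05 ± 0.03 log2, with an exact permutation p of 0.00216 and a limma p of 0.123. Median centring, which shifts all genes, raised the lower hosts from 4 to 11 and all lower transcript clusters from 1889 to 3711 (12.6%).

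snoRNA genes inside the same host gave 10 pairs. The median correlation of their within-genotype deviations was 0.797, against 0.447 for 458 C/D pairs, 0.489 for 188 H/ACA pairs and 0.422 for 619 mixed pairs from different hosts. Without KO1 these medians were 0.739, 0.267, 0.272 and 0.212. Pairs share genes, so these are descriptions. Snora73a and Snora73b, both from Snhg3, correlated at 0.992. Snora73a was at 9.06 on KO1 and at 9.62 to 10.26 elsewhere, and Snora73b at 8.95 and at 9.39 to 10.05. Snord42a and Snord42b, from Rpl23a, correlated at 0.948, Snord33 and Snord35a, from Rpl13a, at 0.902, and Snord49a and Snord49b at 0.831. The copies of a family resemble each other in sequence, so how far their probes read the same RNA was not tested.

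Sharing a host did not always mean sharing a profile. Snora75 and Snord82, an H/ACA and a C/D gene from different introns of Ncl, correlated at -0.375, or -0.692 without KO1. On KO3 Snora75 reached its highest level, 8.67, and Snord82 its lowest, 10.81. On WT6 Snora75 was at its lowest, 7.44, while Snord82 was at 11.37. Snord73a and Snord73b correlated at 0.036: Snord73a stayed between 5.23 and 5.61 and Snord73b ran from 9.33 to 10.40. The mean of Snord73a was at the 30th percentile of all transcript clusters and its spread was small. A correlation near 0 therefore says little about whether this pair shares a profile. Snora16a and Snora44 from Snhg12 correlated at 0.732, and the pair parted on KO6, where the deviation of Snora44 was -1.55 log2 and Snora16a was at a level of 8.63.

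**Figure D5:**
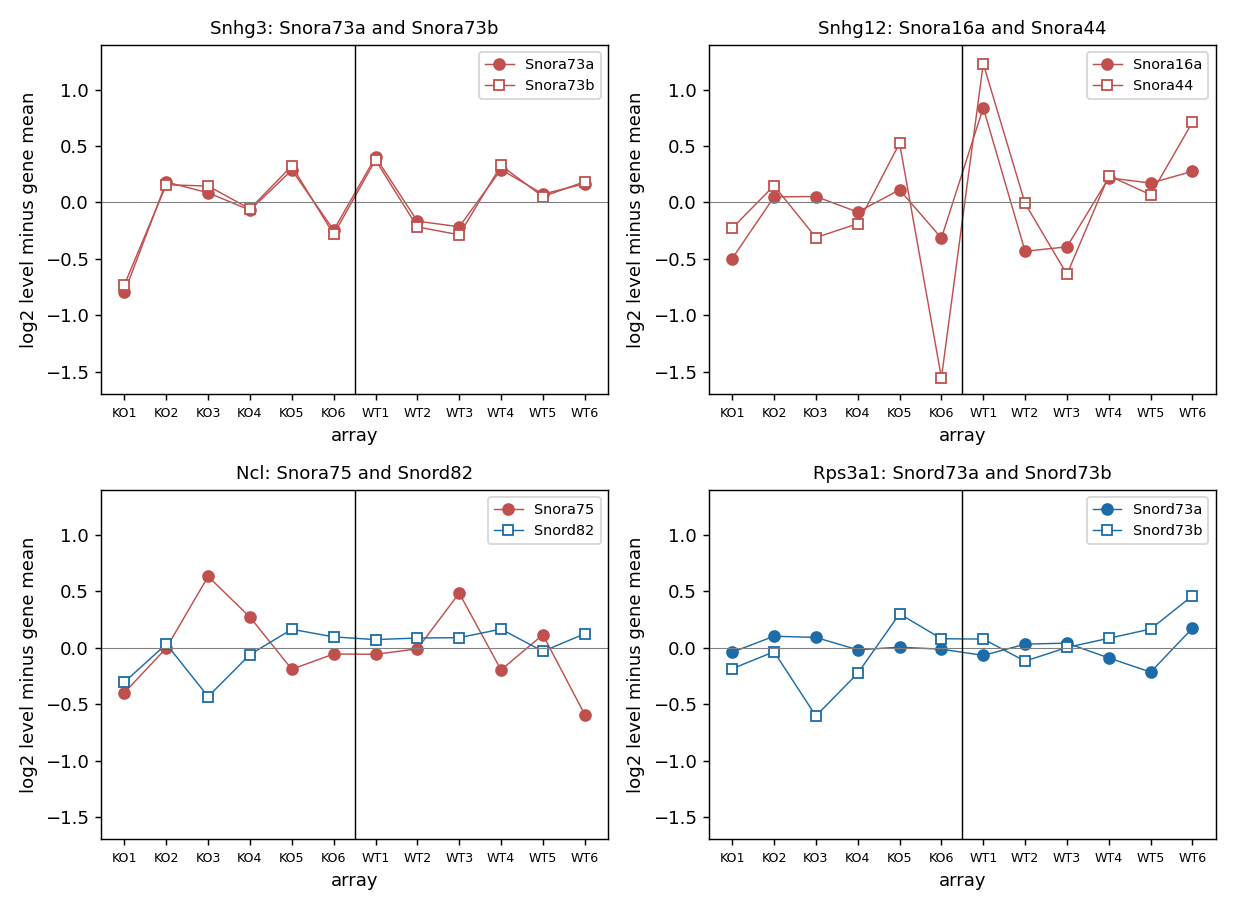
Log2 level minus the gene's mean (vertical axis) on each of the 12 arrays (horizontal axis) for pairs of snoRNA genes inside Snhg3, Snhg12, Ncl and Rps3a1, with lines only to guide the eye. The Snhg3 pair overlies itself (r = 0.992), Snora44 parts from Snora16a on KO6, and Snora75 and Snord82 are at opposite extremes on KO3.

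The protein genes of the snoRNA pathway were tested in the same fit. None of the 4 core proteins of C/D particles differed at an unadjusted p under 0.05: the methyltransferase Fbl was at 11.29 to 11.37 in the knockout and 11.13 to 11.43 in the wild type, differing by 0.06 ± 0.05 log2, and Nop56, Nop58 and Snu13 had differences of -0.01, -0.08 and 0.02. None of the 4 H/ACA core proteins did either, with the pseudouridine synthase Dkc1 at -0.03 ± 0.04, Nop10 at 0.03, Nhp2 at 0.04 and Gar1 at 0.02. Of 19 genes for particle assembly and trafficking, 0 reached that threshold and 13 were lower. The lowest p was that of Smn1, at -0.10 ± 0.05 (exact permutation p = 0.0931). None of these 27 genes passed the adjusted threshold. With each array centred on its median, 2 of them were lower at an unadjusted p under 0.05, against 12.6% of all transcript clusters.

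Of the 10 genes listed for intron processing and RNA trimming or decay, all 10 were lower in the knockout, 4 of them at an unadjusted p under 0.05 and 0 after adjustment. Over all transcript clusters 13041 of 29541 were lower, and 6.39% were lower at that threshold. Dbr1, the debranching enzyme that opens the intron lariats from which snoRNAs are released, was at 7.67 to 7.87 in the knockout and 7.91 to 8.03 in the wild type, with no overlap. Its difference was -0.17 ± 0.04 log2, with an adjusted p of 0.170 in limma. The two-sided exact permutation p was 0.00216, the smallest that 6 arrays against 6 can give. The other 3 were Parn, a deadenylase that trims H/ACA snoRNA ends, at -0.13 ± 0.04, the exonuclease Xrn2 at -0.11 ± 0.04 and the exosome subunit Exosc9 at -0.14 ± 0.05. Quantile normalisation gave 9 of 10 lower and the set without KO1 gave 8 of 10, each with 4 at an unadjusted p under 0.05. Median centring gave 10 of 10 lower with 6 at that threshold, where 12.6% of all transcript clusters were lower.

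Ribosome biogenesis genes showed no common direction: of 47 with a value, 24 were higher and 23 lower, with a median of 0.00 log2. The split moved with the scaling, to 30 and 17 with quantile normalisation and to 15 and 32 with median centring. Mycn, a transcription factor that drives ribosome production, was higher by 0.26 ± 0.08 (exact permutation p = 0.00866, adjusted limma p = 0.214), and Npm1, which encodes the nucleolar protein nucleophosmin, was lower by -0.19 ± 0.07 (exact permutation p = 0.00649, adjusted limma p = 0.266). Npm1 was at 11.28 on KO1 and 11.58 to 11.74 on the other knockout arrays, against 11.72 to 11.88 in the wild type. Of the 20 listed non-coding hosts 8 had a value: 7 were higher and 1, Snhg5, lower, with 0 at an unadjusted p under 0.05. Gas5, the host of Snord47, differed by 0.07 ± 0.09.

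Transcript clusters that name a snoRNA together with other genes were low on KO1 as well, apart from those of the Snord116 copies. Leaving aside the Snord116 copies, 13 of them were tested, 0 at an unadjusted p under 0.05, and all 13 were below their mean on KO1, with a median deviation of -0.53 log2. The largest difference was that of the cluster of Snora34 and Mir1291, at -0.59 (exact permutation p = 0.123). The 7 clusters of the Snord116 copies, snoRNAs known from the Prader-Willi region and from neurons, had means of 3.87 to 5.68, and 3 of them passed the filter. On KO1 these 3 deviated from their means by 0.25, 0.08 and -0.04 log2.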

How the data were processed

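RNA of 12 mice was hybridised to GeneChip arrays (Mouse Gene 1.0 ST). The authors' deposited values are log2 levels per transcript cluster, made in GeneSpring GXv11 with the RMA16 algorithm, per the labels' design text. Which probe annotation the summarisation used is not stated, and no scanner file was used. RMA gives arrays like distributions, which would hide a shift shared by most genes. The probes may read mature snoRNA, host intron or both.

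Of 34760 transcript clusters, 5219 below the 20th percentile of every array were removed, as that text describes, leaving 29541. Knockout minus wild type was fitted by lmFit and eBayes (limma 3.58.1, R 4.3.3) without covariates, with Benjamini-Hochberg adjustment at 0.05 over all 29541. The limma step was tested on simulated data. Exact permutation of the 12 arrays was two-sided. The number of arrays, 6 per genotype, limits the precision. Whether replicate numbers shared between the genotypes pair the arrays is not known, and the main fit treated the arrays as unpaired. Hosts were genes of the RefSeq table (GRCm38.p6) whose span contains the snoRNA gene, without regard to strand, though the same strand had been planned.

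The snoRNA genes named are those of lowest p in each direction, largest spread, brightest probes and greatest likeness to the other members. Hosts and pathway genes named are those of lowest p per list. Other genes were chosen after their values were seen: Snord104, Snord22, Snord47, Snord61, the genes sharing a host, and those of KO1. Members and lists were chosen with earlier results of these data known. Alternatives covered filter, scaling, variance trend, array weights, replicate block, each array left out, and the transcript cluster per gene. Taking 1 gene per host, the 182 small RNA genes past the filter, and correlations and components without KO1 were added after seeing the data. Some results are not reported here.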

Additional observations from a re-analysis of the deposited data

Results flagged for a closer look

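KO1 was far below the other 5 knockout arrays, with a gap to the nearest of them above Dixon's critical share of the range, in 16 of the 114 sets of 6 arrays examined. These sets were the 54 genes and 3 class means in each genotype, and chance alone flags about 1 set in 20. The sets share the same arrays and their genes vary together, so they are not independent and the count of 16 cannot be read against that share. All 16 sets lay in the knockout, and in all 16 KO1 was the lowest array. Among H/ACA genes they were Snora21 at 9.34, Snora3 at 8.86, Snora31 at 6.61, Snora52 at 12.6, Snora62 at 6.16, Snora70 at 8.15 and Snora7a at 10.01. Among C/D genes they were Snord15a at 6.4, Snord15b at 7.82, Snord22 at 7.39, Snord37 at 7.27, Snord42a at 6.86, Snord42b at 8.37 and Snord95 at 8.05. The centred class means were -0.477 for C/D and -0.604 for H/ACA genes. The gap was largest for Snora70, 0.857 of the range. The same array has the highest levels of all 9 neutrophil genes and is the single array with male-type levels of Xist and Uty, whose part in these values was not tested.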

How the results depend on the processing

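The count of snoRNA genes past an adjusted p of 0.05 was 0 under every alternative run. Over all transcript clusters that count was 5 with array weights and 0 to 4 with single arrays left out. At an unadjusted p under 0.05, quantile normalisation gave 1 C/D gene lower and 3 hosts higher. Over all transcript clusters 6.56% were lower and 5.8% higher in that fit. With median centring 12.6% of all transcript clusters were lower. Median centring gave 1 C/D and 1 H/ACA gene, 2 snoRNP protein genes, 11 hosts and 5 ribosome biogenesis genes lower. It turned the differences of Snora23, Snora3 and Scarna13 to -0.0232, -0.0251 and -0.00949, as it shifts every gene. An intensity trend gave 7 hosts lower. Whether the replicate numbers pair the arrays was not settled. Deviations of same-numbered arrays correlated between -0.033 and 0.462, and 3 of 6 knockout arrays correlated best with their own number. With so few arrays these values cannot decide it. The fit with the replicate number as a block gave 2 hosts lower, 3 ribosome biogenesis genes higher and 3 lower. Without both arrays numbered 1, there were 1 H/ACA gene higher, 2 hosts lower, and SDs of the C/D and H/ACA means of 0.132 and 0.14. For the intensity trend, the replicate block and this last fit the share over all transcript clusters is not given. Their counts therefore cannot be set against it.

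With single arrays left out, counts at an unadjusted p under 0.05 ran from 0 to 3 for C/D genes lower, 0 to 2 for H/ACA genes higher, 0 to 1 for snoRNP protein genes lower, 1 to 3 and 2 to 5 for hosts higher and lower, and 1 to 2 and 1 to 3 for ribosome biogenesis genes. The correlation of the class means ran from 0.646 to 0.926, and was 0.193 without the 2 arrays farthest from the C/D median. The SDs of these means over arrays ran from 0.138 to 0.209 for C/D and from 0.135 to 0.241 for H/ACA genes, lowest without KO1. Differences ran from -0.0746 to 0.122 for Snora23, -0.153 to 0.142 for Snora3, -0.0323 to 0.191 for Snora75 and -0.0378 to 0.114 for Scarna13. The median differences ran from -0.0562 to 0.068 for C/D, -0.153 to 0.00546 for H/ACA and -0.0243 to 0.0759 for Scarna genes. The cause of these changes was not tested beyond the array left out.

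Snord38a was below the 20th percentile on 8 arrays and Snora41 on 1, where a level near background can hide a difference. Taking the mean of both transcript clusters moved the level of Snora21 from 10.4 to 9.44. The main limits are 6 arrays per genotype and the weight of KO1.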
